A study of Mus musculus with 6 samples.

Results

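The mitochondrial solute carriers of the Slc25 family, with uncoupling protein genes, were described in mouse leukaemia cells in which Cre recombinase had or had not been delivered. Members were all genes whose symbol is Slc25a followed by a number, and Ucp1, Ucp2 and Ucp3. RefSeq's genes for mouse (GRCm38.p6) include 50 of them, and 48 had a probe set assigned to a single gene, out of 19938 genes tested. The others, Ucp2 among them, are not analysed here.

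RNA was measured on 6 arrays of BCR-ABL1-transformed pre-B cells of strain 129P2/OlaHsd, a culture model of Philadelphia chromosome-positive acute lymphoblastic leukaemia. All cells were Ptpn6 +/fl, with 1 floxed and 1 intact allele of the gene for the phosphatase SHP-1, all were puromycin-resistant, and all had been kept for 2 days with 4OH-Tamoxifen at 0.5 micromolar. In 3 samples the transduced vector was PMIP-ERT2, which encodes the tamoxifen-responsive oestrogen receptor domain alone, without a recombinase, and in the other 3 it was PMIP-CRE-ERT2, which encodes Cre fused to that domain. At most 1 allele could be removed, and only in the CRE-ERT2 group, and no sample had both alleles floxed. Values are log2 expression, so that a difference of 1 is a doubling, and each difference is CRE-ERT2 minus ERT2.

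Carriers of this family sit in the inner mitochondrial membrane, with a few exceptions such as the peroxisomal Slc25a17. Each is built from repeats of the same transmembrane unit and exchanges or co-transports small molecules such as ADP and ATP, phosphate, citrate, malate, amino acids, folate, nucleotides or iron. They link the metabolism of the cytosol to the respiratory chain, to haem synthesis and to the folate reactions that proliferating lymphoid cells rely on.

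Ptpn6 did not pass the test: its log2 expression was 11.34 ± 0.08 with ERT2 and 11.27 ± 0.08 with CRE-ERT2 (SD, n = 3 each), and whether its probe set reads the floxed part is not known here. Of 11 pre-B cell markers measured, all 11 lay above the median level of all genes and 8 above the upper quartile. Of 24 markers of T cells, myeloid and erythroid cells, brown fat and fibroblasts, 4 lay above the median and 0 above the upper quartile. Of these 24, 0 differed between the groups by limma at an adjusted p under 0.05. Among the pre-B markers Dntt was higher with CRE-ERT2 (0.48), and Il7r (-0.43) and Rag2 (-0.53) were lower, and the part of this in the carrier results was not tested. Nothing in the labels tells whether replicates came from separate cultures, so p-values measure the spread between these samples only.

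Of the 48 carriers, 1 rose, 2 fell and 45 did not pass. That is 6.25% of the carriers, a share near the 4.58% of all genes tested. The orphan carrier gene Slc25a53 rose, and the folate carrier gene Slc25a32 and the ornithine carrier gene Slc25a15 fell. By direction, 2.08% of carriers were called higher against 2.3% of all genes, and 4.17% lower against 2.28%. The calls come from limma with Benjamini-Hochberg adjustment over all genes and a threshold of 0.05.

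Most differences were small, though no smaller than those of a typical gene. The difference was under 0.1 in size for 26 of the 48 carriers (54.2%, against 61.2% of all genes) and under 0.2 for 41 (85.4%, against 86.8%), and its median size was 0.095 (all genes 0.076). The median signed difference was -0.06, beside -0.03 over all genes. The group mean was lower with CRE-ERT2 for 32 carriers, 66.7% of them, where the same was true of 61.1% of all genes. The groups did not overlap for 12 carriers (25%, against 22.5% of all genes). Of these, 2 were above with CRE-ERT2 (4.17%, against 6.92%) and 10 below (20.8%, against 15.5%). The median SD of a carrier within groups was 0.07 (all genes 0.10), with a range from 0.02 for Slc25a3 to 0.22 for Slc25a21.

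**Figure D1:**
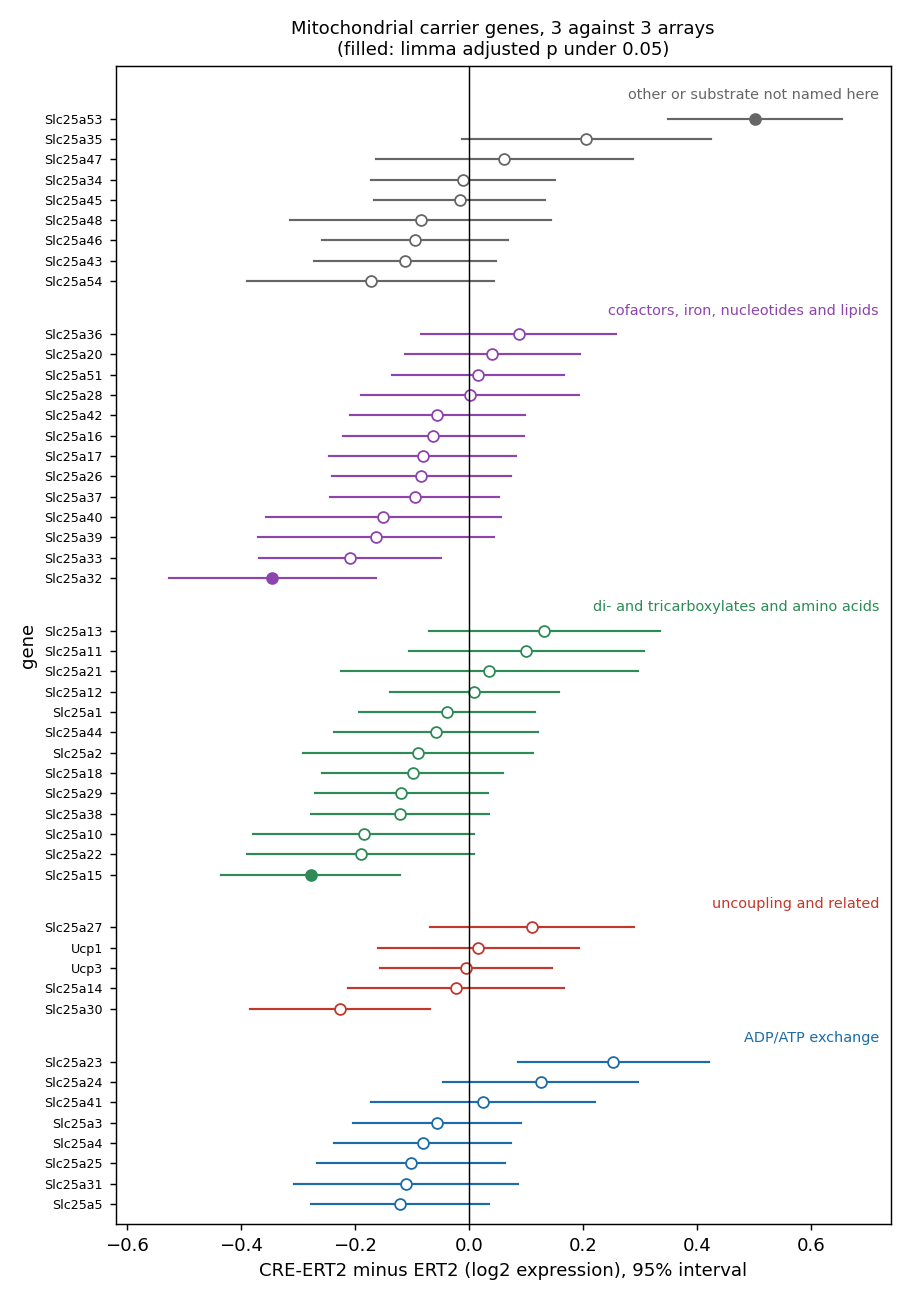
Difference between the groups for each of the 48 carrier genes on the log2 scale (horizontal axis), with its 95% confidence interval from limma. Colours group the carriers by what they transport, and genes are ordered by the difference within each colour. Filled points passed at an adjusted p under 0.05: Slc25a53 at 0.50, Slc25a32 at -0.35 and Slc25a15 at -0.28.

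Slc25a53 encodes a family member with no established substrate. Its gene lies on the X chromosome, and the RefSeq table of GRCm38.p6 gives it 2 transcription starts. The 250 bases before each start are shown because, among the carriers, this gene had the only call that held under every setting. The first window is at chrX:137038303-137038552 and the second at chrX:136993033-136993282, both on the minus strand and written 5′ to 3′. Capitals mark a CCAAT box, which begins 101 bases before the second start.
Slc25a53, first start: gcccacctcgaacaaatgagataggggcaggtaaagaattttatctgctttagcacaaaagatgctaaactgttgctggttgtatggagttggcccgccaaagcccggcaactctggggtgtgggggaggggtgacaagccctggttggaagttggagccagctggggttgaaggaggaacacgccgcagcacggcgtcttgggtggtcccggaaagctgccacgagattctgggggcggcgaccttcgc
Slc25a53, second start: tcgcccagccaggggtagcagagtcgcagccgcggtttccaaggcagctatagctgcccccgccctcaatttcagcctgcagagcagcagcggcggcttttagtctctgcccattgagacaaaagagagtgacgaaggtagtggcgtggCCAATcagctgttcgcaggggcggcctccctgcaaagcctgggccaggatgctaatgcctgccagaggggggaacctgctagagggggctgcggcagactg

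On the arrays labelled ERT2 the log2 expression of Slc25a53 was 10.82, 10.72 and 10.72, and on those labelled CRE-ERT2 it was 11.27, 11.26 and 11.24. The groups were far apart, and replicates lay close together within each group. The means were 10.76 ± 0.06 and 11.26 ± 0.01 (SD, n = 3 each), a rise of 0.50 with a standard error of 0.07 (95% interval 0.35 to 0.65), or 1.42-fold (limma adjusted p = 0.000927). With any single array left out the rise lay between 0.48 and 0.54 and the adjusted p between 0.00244 and 0.00991.

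Slc25a32 carries folates, and is also linked to FAD, across the inner membrane, and so supplies the mitochondrial arm of one-carbon metabolism. Its log2 expression was 11.31, 11.14 and 11.11 on the ERT2 arrays and 10.92, 10.73 and 10.87 on the CRE-ERT2 arrays. The groups did not overlap, and ERT2 replicate 1 was the highest of the 6. It fell by 0.35 with a standard error of 0.08, to a ratio of 0.787 (limma adjusted p = 0.0347). The call was lost without ERT2 replicate 1 (adjusted p = 0.137) and when any CRE-ERT2 array was left out (0.0550, 0.160 and 0.120 for replicates 1, 2 and 3), after a further quantile normalization (0.0508) and when all 35556 probe sets were tested (0.192), while the difference stayed between -0.39 and -0.28 over the arrays left out.

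Slc25a15 exchanges ornithine for citrulline and connects the urea cycle and ornithine metabolism across the inner membrane. RefSeq lists 2 starts on the minus strand of chromosome 8. The 250 bases before the outer one, chr8:22398622-22398871, hold none of the motifs searched, and the window of the inner one holds the E-box CACGTG, the site read by MYC, MAX and USF proteins, which begins 77 bases before that start. They are shown because Slc25a15 was the one called carrier with this motif among those matched. The 30 bases around the E-box, in capitals, are at chr8:22398337-22398366.
Slc25a15, outer start: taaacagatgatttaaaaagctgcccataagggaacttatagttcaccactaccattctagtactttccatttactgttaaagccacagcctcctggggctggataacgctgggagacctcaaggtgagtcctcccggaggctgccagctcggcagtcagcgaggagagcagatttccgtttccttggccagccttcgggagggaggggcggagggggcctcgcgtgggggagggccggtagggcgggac
Slc25a15, E-box of the inner start: cgccctgccgcaCACGTGccgcggctccgg

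Its log2 expression was 10.47, 10.41 and 10.48 with ERT2 and 10.25, 10.14 and 10.14 with CRE-ERT2. All 3 CRE-ERT2 arrays were lower than all 3 ERT2 arrays, and the fall was 0.28 with a standard error of 0.07 (ratio 0.825, limma adjusted p = 0.0478). This call stood just inside the threshold and did not survive the removal of any of the 6 arrays: the adjusted p ran from 0.0607 without CRE-ERT2 replicate 1 to 0.199 without CRE-ERT2 replicate 3. It was also lost after a further quantile normalization (0.0715) and with all probe sets tested (0.162). Slc25a2, a second ornithine carrier gene, read -0.09 (adjusted p = 0.743), and whether probe sets separate close relatives was not tested.

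**Figure D2:**
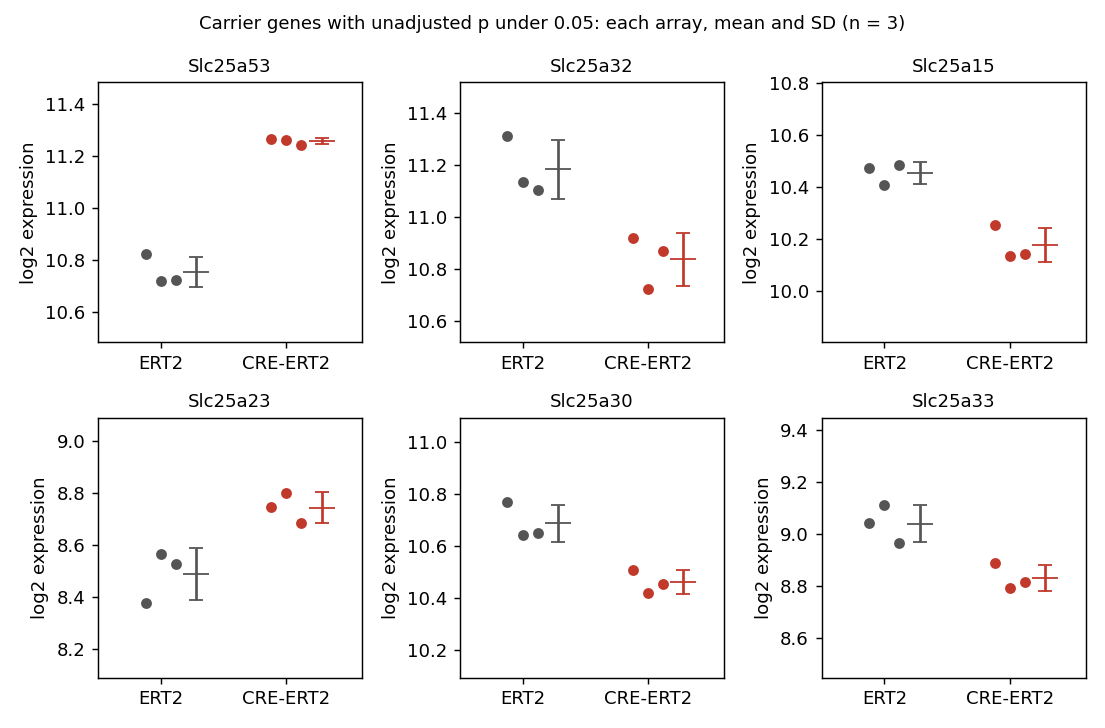
Log2 expression on each array (points), with the mean and SD of the 3 arrays of a group beside them, for the 6 carriers whose unadjusted p was under 0.05. Every panel spans 1 log2 unit, and in all 6 the groups do not overlap. Slc25a53 shows the widest gap, from 10.76 to 11.26.

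A further 3 carriers had an unadjusted p under 0.05 without passing the adjusted test, so 6 of 48 (12.5%) were below that line, against 16.4% of all genes. Slc25a23, a calcium-regulated exchanger of ATP-Mg for phosphate, read 8.38, 8.57 and 8.53 with ERT2 and 8.75, 8.80 and 8.68 with CRE-ERT2 (difference 0.25, limma adjusted p = 0.0935). It passed only when the dimmest genes were left out (0.0498). Slc25a30, a carrier related to the uncoupling proteins, read 10.77, 10.64 and 10.65 against 10.51, 10.42 and 10.45 (difference -0.23, limma adjusted p = 0.113). Slc25a33, a pyrimidine nucleotide carrier, read 9.04, 9.11 and 8.97 against 8.89, 8.79 and 8.81 (difference -0.21, limma adjusted p = 0.151). In each of these genes the groups were separate on all arrays, but by less than the 3 called carriers.

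Genes of ADP/ATP, ATP-Mg and phosphate exchange held 8 members, of which 0 passed. Their differences ranged from -0.12 to 0.25, the highest being that of Slc25a23. The ADP/ATP translocases and the phosphate carrier supply the ATP synthase and export its product. Slc25a23, Slc25a24, Slc25a25 and Slc25a41 are carriers of ATP-Mg and phosphate. Slc25a5, the ADP/ATP translocase of proliferating cells, was at 14.12, 14.03 and 14.05 with ERT2 and at 13.996, 13.96 and 13.88 with CRE-ERT2 (difference -0.12, 95% interval -0.28 to 0.04). Its other probe sets read -0.11 and -0.06, and none of the 3 passed. Slc25a5 has near-identical gene copies, so which copy these probe sets read is uncertain. Slc25a4, the translocase typical of muscle, was at 12.38, 12.39 and 12.45 and at 12.39, 12.33 and 12.26 (-0.08), and the groups overlapped by one value. The phosphate carrier gene Slc25a3 was among the steadiest members, at 13.87, 13.88 and 13.90 with ERT2 and 13.84, 13.85 and 13.80 with CRE-ERT2. Its interval, from -0.20 to 0.09, leaves room for small changes in either direction. Slc25a31, the translocase of the testis, was dim (mean 4.66 and 4.55).

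Of the 5 uncoupling proteins and their relatives measured, 0 passed. Ucp1, which makes heat in brown fat, was at 6.75 ± 0.11 and 6.77 ± 0.09 (SD, n = 3 each), and the brown fat markers Cidea, Prdm16, Adipoq and Fabp4 were likewise below the median level of all genes. Ucp3, the form of muscle, differed by -0.0051. Detection calls were not used here, so how far these low values lie above background is unknown.

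Carriers of di- and tricarboxylates and amino acids held 13 members, of which Slc25a15 fell and 12 did not pass. The citrate carrier gene Slc25a1, which exports the carbon used for fatty acid and sterol synthesis, was nearly level at 13.05, 13.07 and 13.13 against 13.11, 13.03 and 13.00. The aspartate/glutamate carriers of the malate-aspartate shuttle gave 0.0098 for Slc25a12 (95% interval -0.14 to 0.16) and 0.13 for Slc25a13 (-0.07 to 0.34). The dicarboxylate carrier gene Slc25a10 read 10.37, 10.60 and 10.62 against 10.46, 10.35 and 10.23, and the groups overlapped through ERT2 replicate 1. The oxoglutarate/malate carrier gene Slc25a11 read 11.65, 11.93 and 11.95 against 12.05, 11.97 and 11.82, with that same array again the lowest. Slc25a38, which brings in glycine for haem synthesis, read 10.89 on each ERT2 array and 10.83, 10.69 and 10.78 on the CRE-ERT2 arrays. Its difference was -0.12 (limma adjusted p = 0.463), although the groups did not overlap.

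Carriers of cofactors, iron and nucleotides also held 13 members, of which Slc25a32 fell and 12 did not pass. The mitoferrin genes, whose products carry iron, did not pass: Slc25a37 read 11.16, 11.20 and 11.19 against 11.11, 11.07 and 11.09 (difference -0.10), and Slc25a28 read 10.49, 10.71 and 10.80 against 10.69, 10.72 and 10.60 (0.0027, with a sign that turned when arrays were centred). Slc25a37 was lower on every CRE-ERT2 array by a small step, while Slc25a28 varied more within the ERT2 group than between groups. The carnitine/acylcarnitine carrier gene Slc25a20, which admits fatty acids for oxidation, read 9.75, 9.80 and 9.76 against 9.85, 9.84 and 9.74 (0.04). The glutathione carrier genes Slc25a39 (-0.16) and Slc25a40 (-0.15) did not pass, and a second probe set of Slc25a40 gave -0.0079. The NAD carrier gene Slc25a51 differed by 0.02 (95% interval -0.13 to 0.17). The remaining 9 members, of other or here unnamed function, held Slc25a53 as their 1 call and ranged from -0.17 for Slc25a54 to 0.50.

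A run of carriers followed a single array. On ERT2 replicate 1, 8 carriers (16.7%) were at least 0.15 below both other ERT2 arrays, against 5.57% of all genes: Slc25a10, Slc25a11, Slc25a21, Slc25a22, Slc25a28, Slc25a35, Slc25a39 and Slc25a44. On the same array Slc25a32, Slc25a36 and Slc25a40 were at least 0.15 above both others (6.25%, against 11.2% of all genes). Slc25a11, Slc25a22 and Slc25a39 were also at least 0.15 below both other CRE-ERT2 arrays on CRE-ERT2 replicate 3. Without ERT2 replicate 1 the differences of the first, Slc25a10, and of Slc25a22 and Slc25a39 were -0.26, -0.27 and -0.27 in place of -0.18, -0.19 and -0.16, and limma adjusted p was 0.173, 0.173 and 0.141. Without that array the rise of Slc25a11 shrank from 0.10 to 0.0042, and Slc25a28 went from 0.0027 to -0.086. The 8 carriers were picked for low values on ERT2 replicate 1, so leaving it out had to move their differences down. The shifts of Slc25a10, Slc25a11, Slc25a22, Slc25a28 and Slc25a39 therefore describe the weight of that array and test nothing. Slc25a28 changed sign without it, and Slc25a21 turned sign in at least 1 alternative.

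**Figure D3:**
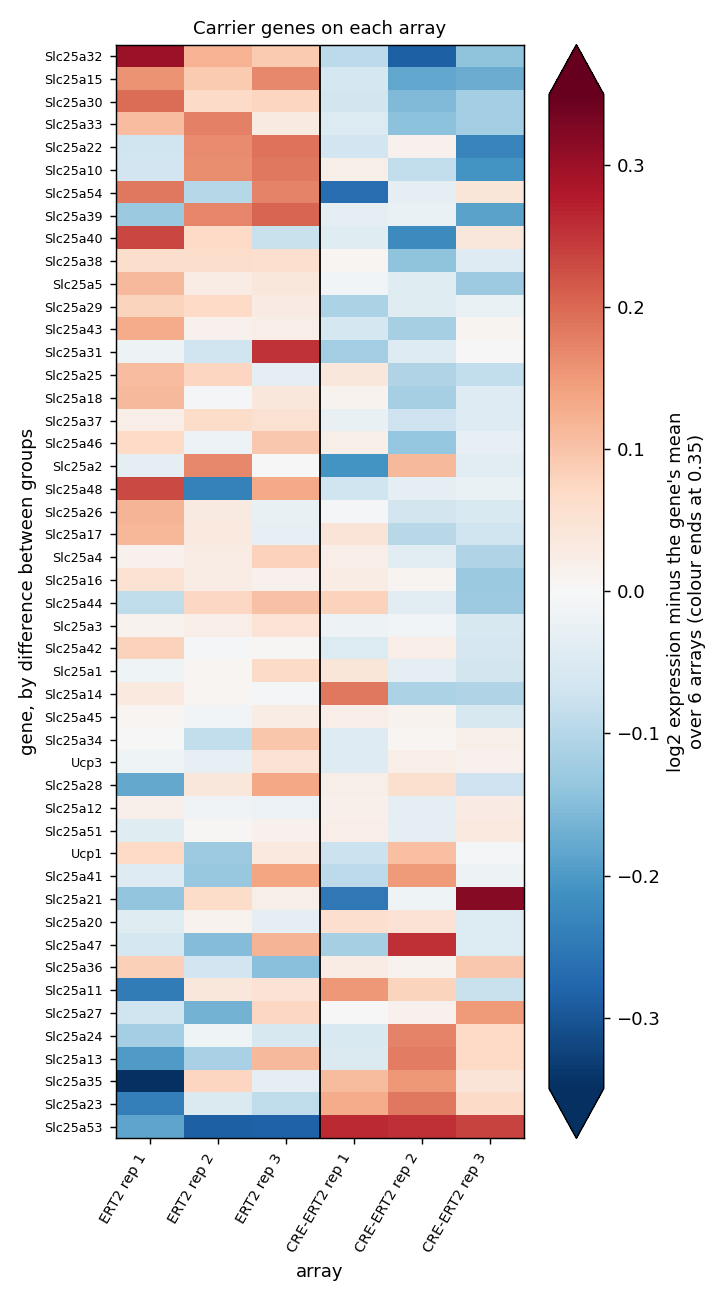
Log2 expression of each carrier gene (rows, ordered by the difference between groups) on each of the 6 arrays (columns), as the deviation from the gene's own mean. Slc25a53 at the foot is low on all 3 ERT2 arrays and high on all 3 CRE-ERT2 arrays, and the first column is blue for carriers such as Slc25a11, Slc25a35 and Slc25a28.

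Enzymes and transporters that work with these carriers were read from lists of 146 names, of which 127 genes were measured. Of these 1 rose and 15 fell (12.6%, against 4.58% of all genes), with a median of -0.11. The lists were drawn up with earlier results of these data known, which included falls of Mthfd2, Shmt1, Ak4 and Hk2, so this share is a description of the lists.

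The partners of the folate carrier held the most calls of these lists, though the falls of Mthfd2 and Shmt1 were known beforehand. Of 11 genes of folate, glycine and S-adenosylmethionine metabolism, 5 fell (45.5%, against 2.28% of all genes) and 6 did not pass. All 11 means were lower with CRE-ERT2, as were 61.1% of those of all genes, and the median difference was -0.33. Mthfd2, the mitochondrial methylene-tetrahydrofolate dehydrogenase, read 12.27, 12.34 and 12.41 with ERT2 and 11.94, 11.77 and 11.71 with CRE-ERT2 (difference -0.54, limma adjusted p = 0.00173). The other calls were its relative Mthfd2l (-0.52), the glycine cleavage enzyme gene Gldc (-0.45), the mitochondrial formate-producing enzyme gene Mthfd1l (-0.43) and the cytosolic serine hydroxymethyltransferase gene Shmt1 (-0.33). Among the 5, Mthfd2, Mthfd2l and Gldc passed whichever array was left out; Mthfd1l did not pass without CRE-ERT2 replicate 3 (0.0565), and Shmt1 was lost without ERT2 replicate 1 (0.0607) or without replicate 2 (0.0642) or 3 (0.125) of the CRE-ERT2 group.

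Partners of the amino acid carriers showed fewer calls. Of 12 urea-cycle and amino acid genes 2 fell: the branched-chain aminotransferase gene Bcat1 (-0.41, limma adjusted p = 0.00388), which passed under each alternative, and Aldh18a1 (-0.30, 0.0351), which makes the proline and ornithine precursor and passed with 1 of the 6 arrays left out in turn. Oat, which makes or uses ornithine in mitochondria, read -0.23 and did not pass. Of 7 genes of the malate-aspartate and glycerol phosphate shuttles 2 fell, Got1 (-0.31) and Gpd1l (-0.30), and the calls were kept in 1 and 2 of the 6 leave-outs. Of 17 citrate and dicarboxylate partners 0 passed, although 16 means were lower and 12 genes had every CRE-ERT2 array below every ERT2 array, where 15.5% of all genes did. Acaca, whose product starts fatty acid synthesis from acetyl-CoA (-0.29, adjusted p = 0.0521), and the cytosolic aconitase gene Aco1 (-0.27, 0.0542) came nearest by limma.

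Nucleotide partners held the largest difference. Of 16 measured 2 fell: Ak4, an adenylate kinase of the mitochondrial matrix (difference -2.20, limma adjusted p = 4.18e-08), and the mitochondrial NAD kinase gene Nadk2 (-0.37), whose call was kept in 2 of the 6 leave-outs. A second Ak4 probe set gave -0.44 and did not pass (adjusted p = 0.427 by limma over all probe sets). Of 6 outer-membrane channel and permeability genes 1 fell, the hexokinase gene Hk2 (-0.58), whose product docks on the channel VDAC, and Vdac1 itself read -0.19 without passing. Of 16 iron and haem genes 1 fell, the coproporphyrinogen oxidase gene Cpox (-0.37, adjusted p = 0.00849 by limma), a call lost without CRE-ERT2 replicate 3 (0.0648). Of 10 carnitine and fatty acid oxidation genes 0 passed, and Acadm (0.20) and Hadhb (-0.20) had the smallest p.

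The list labelled other inner-membrane transporters was mixed: of 21, 1 rose and 1 fell. The label is loose, since the list also held other genes, such as Opa1, Tspo, Mtch1, Mtch2 and Abcb6. Its counts therefore describe the list and not inner-membrane transporters alone. Slc8b1, the mitochondrial sodium/calcium exchanger, rose by 0.49 (limma adjusted p = 0.00384) and passed whichever array was left out. Abcb6, a porphyrin transporter first placed in mitochondria, fell by 0.37, a call kept in 2 of the 6 leave-outs. The pyruvate carrier subunit gene Mpc1 read -0.17 and the calcium uniporter gene Mcu 0.11, and neither passed. The small chaperone and import genes of the route that inserts carriers into the inner membrane held 12 members, of which Timm9 fell by 0.28 (limma adjusted p = 0.0452), a call lost with any array left out (lowest adjusted p = 0.0521, without ERT2 replicate 3). All 12 means of that list were lower, from -0.28 to -0.07, and 6 of the 12 had every CRE-ERT2 array below every ERT2 array (15.5% of all genes).

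**Figure D4:**
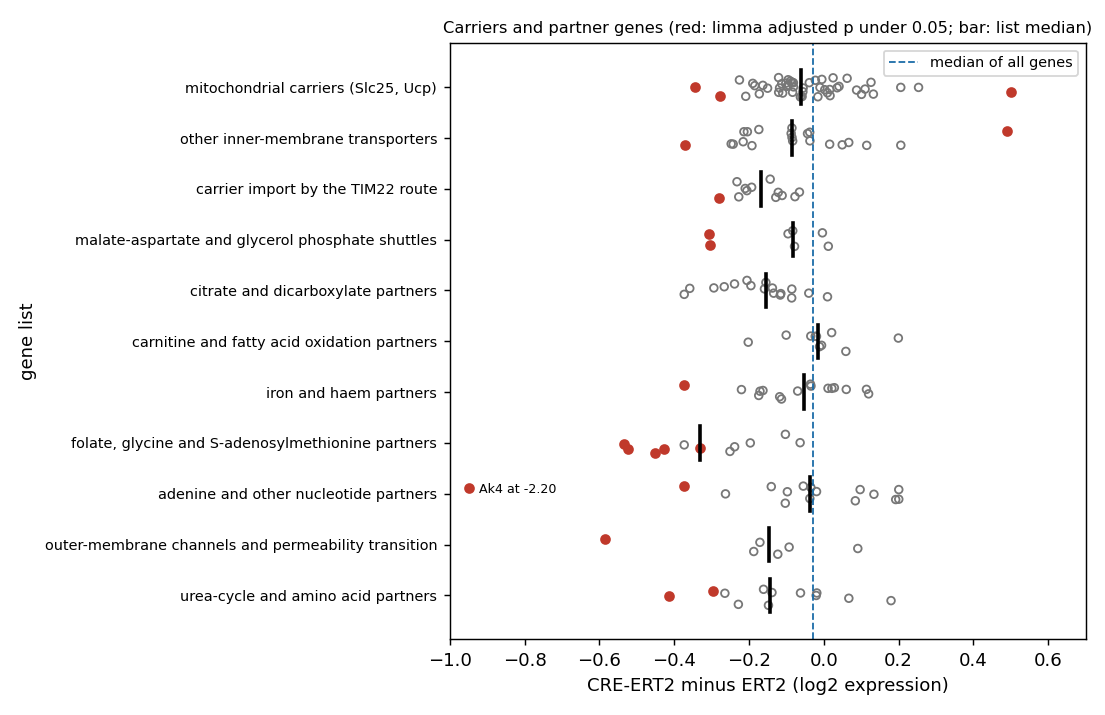
Difference between the groups (log2, horizontal axis) for the carriers and for each partner list, 1 point a gene, red where limma's adjusted p was under 0.05, with a bar at the list's median and a dashed line at the median of all genes (-0.03). The folate list has 5 of 11 genes in red and a median of -0.33; Ak4 is drawn at the left edge, with its value of -2.20 beside it.

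The calls differed in how they stood up to the settings tried. Slc25a53 passed in all 14 alternatives. Slc25a32 and Slc25a15 kept their direction in all of them, but between them lost the call 16 times. With a block for replicate number, for example, their adjusted p by limma was 0.0591 and 0.125.

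**Figure D5:**
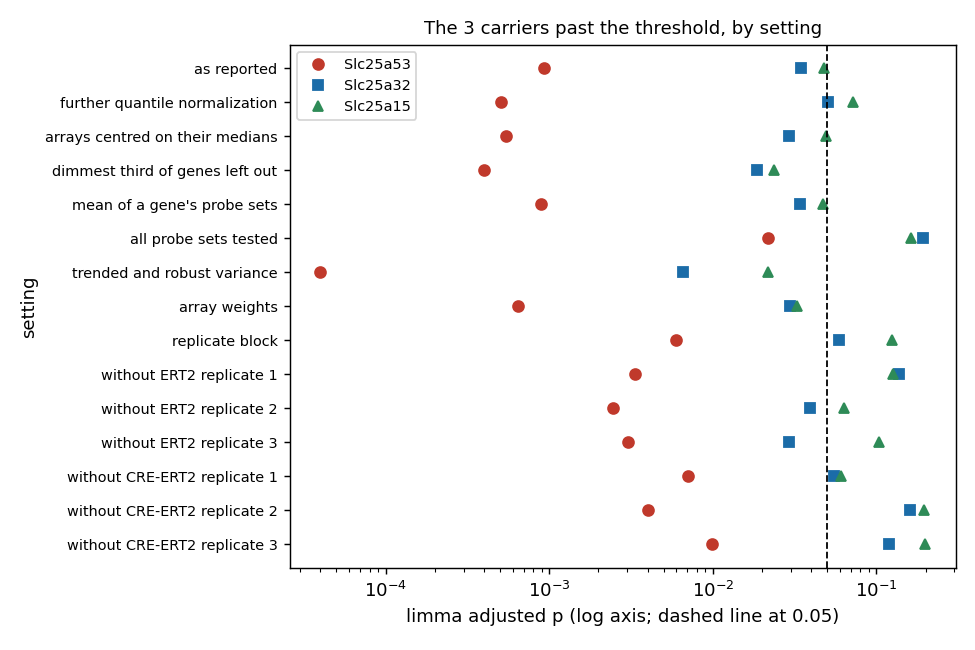
Adjusted p from limma (horizontal log axis, dashed line at 0.05) for the 3 called carriers under each setting. Slc25a53 lies left of the line throughout. Slc25a32 and Slc25a15 lie to its right under several settings, such as with all probe sets tested (0.192 and 0.162).

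Windows of 250 bases before a RefSeq start were matched for 38 of the 48 carriers, 48 windows in all, and both strands were searched. The E-box CACGTG was in 8 of them (16.7%), in 7 genes, against 6.02% of 32851 windows of the same length. Those genes were Slc25a1 (-0.04), Slc25a13 (0.13), Slc25a14 (-0.02), Slc25a15 (-0.28), Slc25a31 (-0.11), Slc25a33 (-0.21) and Slc25a36 (0.09), so carriers with the motif lay on both sides of 0. Overlapping windows were counted separately, among carriers and among all windows, and those of Slc25a14 hold the same E-box. The core ACGTG, which the E-box contains and which hypoxia-inducible factors also read, was in 25% of carrier windows against 16.6%, and CCAAT in 43.8% against 33.8%. The site of NRF1, a factor of many mitochondrial genes, was in 4.17% against 3.74%, and TGATGNAA, the core of the composite site of ATF4, in 0 of 48 against 3.45%. Carrier windows were richer in G and C (median 57.4%, all windows 52.4%), and the windows were not matched for this, so the shares are a description.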

How the data were processed

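The authors deposited 1 table of log2 values, with 1 value per probe set and array; the log2 scale was read from the range of the values. The submitters' processing notes list RMA and Partek 6.5 but give them no role. Groups and replicate numbers came from the sample labels. Of 35556 probe sets, the platform annotation gives 1 gene for 21789, several for 1621 and none for 12146; the last 2 classes were left out. Where a gene had several probe sets, the brightest on average was used. The test was limma's two-sided moderated test (limma 3.58.1, R 4.3.3; group was the only term), adjusted over 19938 genes at 0.05; the code was tested on simulated data. A two-sided exact permutation test of 3 against 3 arrays cannot go below p = 0.1 and is not given. No arrays were duplicates (Pearson correlation 0.991 to 0.996). Signal over background and scan batches were not examined, and precision is limited by the number of arrays. The text names each carrier that passed or had an unadjusted p under 0.05, a set of textbook carriers, and the called members of each partner list. The members and lists were chosen with earlier results of these data known. Alternatives were a further quantile normalization, centring, a filter that drops the dimmest 0.333 of genes, averaging probe sets per gene, testing every probe set, eBayes with trend and robust options, weighting arrays by quality, a block for replicate number, and removal of each array in turn.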

Additional observations from a re-analysis of the deposited data

How the results depend on the processing

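Over all genes 914 passed (50.2% higher). With all 35556 probe sets tested, 298 passed (63.1% higher), which is a count of probe sets and not of genes. The count of genes was 1544 with a trended and robust variance (38% higher) and 453 to 979 with 1 array left out. It was 560 without ERT2 replicate 1, and 574 and 453 without CRE-ERT2 replicates 2 and 3. After a further quantile normalization it was 892 (60.9% higher). Of the carriers 3 passed; 1 passed after a further quantile normalization and with all probe sets tested, and 1 to 2 with 1 array left out. With all probe sets the adjustment covered more tests and limma's variance estimates were refitted. The cause of the fewer calls there, and of the other shifts, was not tested. The carrier median stayed between -0.07 and -0.03. Of the partner genes 16 passed, 4 with all probe sets tested, 29 with a trended and robust variance and 7 to 16 with 1 array left out (9 without ERT2 replicate 1, and 9 and 7 without CRE-ERT2 replicates 2 and 3). With the replicate number as a block 589 genes, 1 carrier (Slc25a53) and 11 partners passed; Slc25a32 and Slc25a15 had adjusted p of 0.0591 and 0.125. Same-numbered arrays did not deviate together (correlations -0.11, -0.37 and -0.07). Deviations were taken from the mean of each group of 3, which ties these correlations to one another. They therefore cannot decide whether the numbers pair the samples. In 0 of 3 cases was the best match the same number: ERT2 replicate 2 went with CRE-ERT2 replicate 1 (0.449), ERT2 3 with CRE-ERT2 2 (0.396) and ERT2 1 with CRE-ERT2 3 (0.180), and whether this reflects a shared batch was not tested. The sign turned in at least 1 alternative for 12 of the 48 carriers, of which 0 had passed: Slc25a14, Slc25a21, Slc25a34, Slc25a41, Slc25a45, Slc25a47, Slc25a48, Slc25a51, Ucp1 and Ucp3, Slc25a28, which read -0.0033 with centring and -0.024 with array weights and ran from -0.086 to 0.071 with 1 array left out, and Slc25a12 (-0.0021 to 0.028). Of 18 carriers under 14 alternatives, 228 values kept their direction and side of the threshold, 16 lost a call, 1 gained one and 6 turned sign.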
